A study of Mus musculus with 20 samples.

Results

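The distal H3K4me1 regions lost after Ep300 deletion were the stretches of mouse autosomes that carried an H3K4me1 peak in WT and in Tet2 Knockout Lin- bone marrow cells and none in p300 Knockout or p300 Tet2 Knockout cells. The 4 H3K4me1 peak lists were merged, touching or overlapping peaks becoming 1 region, and a region was distal when it lay more than 3000 bp from every transcript start of the GENCODE annotation (mm10). Of 134543 merged autosomal regions, 79059 were distal, and 5331 of these were the lost regions, which is 6.74% of the distal regions. Lost means that no peak was listed, not that the mark was shown to be absent. The members were therefore chosen on the presence of H3K4me1 itself, and their H3K4me1 values are given as a description with no test.

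The study asked how loss of the acetyltransferase p300 acts in Tet2-deficient blood progenitors, and profiled histone marks by ChIP-Seq. WT cells came from Ep300 fl/fl mice without Cre. The p300 Knockout was Mx1-Cre;Ep300 fl/fl, Tet2 Knockout was Ep300 fl/fl;Tet2-/-, and p300 Tet2 Knockout was Mx1-Cre;Ep300 fl/fl;Tet2-/-, so that the floxed Ep300 allele was shared by all 4 genotypes. All mice were C57BL/6 of both sexes and received 3 doses of poly(I:C) starting at 6 to 8 weeks of age. Poly(I:C) induces the Mx1 promoter through interferon, and this promoter is also active outside blood cells. Tet2 was lost from the germ line, whereas Ep300 was deleted after the injections, and the methods give 2 weeks after the injections or the time stated with an experiment, with no time stated for these cells. Each immunoprecipitation used 5 µg of chromatin of Lin- cells (purity above 80%), and the sources do not state how many mice gave them. There was 1 library for each genotype and mark, so no value below carries a replicate error, and the intervals given are exact (Clopper-Pearson) 95% binomial intervals that cover counting error only. Lin- cells are a mixture, and a smaller share of 1 cell type cannot be told apart from less of a mark per cell.

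H3K4me1 is laid down mainly by the MLL3 and MLL4 methyltransferases and marks enhancers, both active and primed. p300 and its relative CBP acetylate histones at enhancers, including H3 lysine 27, and H3K27ac is the usual mark of an active enhancer. H3K4me3 marks active and poised promoters. TET2 oxidizes 5-methylcytosine, and enhancers are among the sites where its loss raises DNA methylation.

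Facts of all libraries bear on every count that follows. The H3K4me1 lists held 107392 peaks in WT, 98069 in Tet2 Knockout, 93465 in p300 Tet2 Knockout, and 90738 in p300 Knockout, so both Ep300-deleted lists were the shortest. Their peaks also had the lowest median −log10 q, 4.53 in p300 Knockout and 5.55 in p300 Tet2 Knockout, against 6.22 in WT and 8.05 in Tet2 Knockout. Both Ep300-deleted H3K27ac lists were also the shortest, with 29659 peaks in WT, 24539 in Tet2 Knockout, 22727 in p300 Knockout, and 18327 in p300 Tet2 Knockout. Their median −log10 q differed, at 7.61 in p300 Knockout and 13.71 in p300 Tet2 Knockout, against 11.15 in WT and 13.17 in Tet2 Knockout. Sequencing depth is not part of these lists, and its share in the losses was not tested. Within a genotype all marks were called against the same H3 library. Promoters of 10 blood genes carried H3K4me3 together with H3K27ac at 9 to 10 genes in each genotype, and promoters of 10 genes of other tissues at 0.

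Of the regions, 6 are shown first, because they carried the highest H3K4me1 or, among members acetylated in both Ep300-intact genotypes only, the highest H3K27ac. Each line gives 200 bp of the GRCm38 (mm10) plus strand centered on the WT H3K4me1 summit, in lower case. Capitals mark letters of 1 of the 17 searched motifs, on either strand. The first set is the H3K4me1 set. It comprises an intron of Maea (an erythroblast and macrophage attachment protein that is also part of a ubiquitin ligase) at chr5:33354072-33354271, an intergenic site nearest to the start of the small RNA gene Gm23614, with Prkcb (protein kinase C beta) as the nearest protein-coding gene, at chr7:122258873-122259072, and an intergenic site near Cdc73 (a subunit of the PAF1 transcription elongation complex) at chr1:143708811-143709010.
Maea intron: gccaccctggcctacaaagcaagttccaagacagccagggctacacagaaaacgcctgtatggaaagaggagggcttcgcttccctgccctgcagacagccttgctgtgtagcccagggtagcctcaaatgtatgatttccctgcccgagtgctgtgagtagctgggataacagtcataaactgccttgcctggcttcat
Gm23614 site: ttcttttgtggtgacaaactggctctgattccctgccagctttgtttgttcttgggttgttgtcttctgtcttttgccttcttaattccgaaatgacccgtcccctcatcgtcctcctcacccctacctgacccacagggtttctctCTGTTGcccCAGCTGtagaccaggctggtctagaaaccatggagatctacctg
Cdc73 site: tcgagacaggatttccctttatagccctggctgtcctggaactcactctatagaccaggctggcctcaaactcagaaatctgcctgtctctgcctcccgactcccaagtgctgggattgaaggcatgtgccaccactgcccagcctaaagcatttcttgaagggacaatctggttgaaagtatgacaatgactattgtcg
The H3K27ac set comprises an intron of Mreg (melanoregulin, which acts in organelle transport) at chr1:72196695-72196894, an intergenic site nearest to the start of Gm25125 at chr9:85497486-85497685, and an intergenic site nearest to the start of Gm26296 at chr15:55281500-55281699, with Col14a1 (a collagen) as the nearest protein-coding gene.
Mreg intron: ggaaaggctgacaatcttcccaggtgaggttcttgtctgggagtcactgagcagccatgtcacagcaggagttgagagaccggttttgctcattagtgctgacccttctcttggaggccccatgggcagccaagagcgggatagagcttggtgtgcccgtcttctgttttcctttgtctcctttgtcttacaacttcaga
Gm25125 site: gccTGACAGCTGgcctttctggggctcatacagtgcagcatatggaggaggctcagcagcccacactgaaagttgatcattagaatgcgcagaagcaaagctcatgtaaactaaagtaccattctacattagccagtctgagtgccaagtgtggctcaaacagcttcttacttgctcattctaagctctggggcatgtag
Gm26296 site: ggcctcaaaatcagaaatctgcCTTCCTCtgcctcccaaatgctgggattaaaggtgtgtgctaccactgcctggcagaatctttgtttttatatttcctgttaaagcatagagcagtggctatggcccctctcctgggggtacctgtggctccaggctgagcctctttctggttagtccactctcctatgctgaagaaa
In these windows the capitals are E-box letters of the E2A type (CAGCTG) and MYB letters (CAACNG, read on the minus strand) at the Gm23614 site, MEIS letters (TGACAG) that share 3 bases with E2A type E-box letters at the Gm25125 site, and PU.1 type ETS letters (GAGGAAG, minus strand) at the Gm26296 site. The Maea, Cdc73, and Mreg windows held none of the 17. Of 200 bases, the reference soft-masks as repeats 150 in the Cdc73 window, 101 in the Gm26296 window, and 87 in the Maea window. It masks 70 in the Gm23614 window, 21 in the Mreg window, and none in the Gm25125 window. Whether the capitals at the Gm26296 and Gm23614 sites fall in masked bases was not tested.

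Loss was the more frequent of the mirrored patterns. The opposite pattern, a peak in both Ep300-deleted genotypes and in neither other genotype, was found at 1550 regions (1.96% of distal regions), and 24026 distal regions were marked in all 4 genotypes. Among the 6 ways in which exactly 2 genotypes can share a region, WT with Tet2 Knockout was the most frequent at 5331. It was followed by Tet2 Knockout with p300 Tet2 Knockout at 2911, WT with p300 Knockout at 2201, WT with p300 Tet2 Knockout at 1639, p300 Knockout with Tet2 Knockout at 1591, and p300 Knockout with p300 Tet2 Knockout at 1550. With each list shortened to the 90738 peaks of highest −log10 q, 3894 regions were lost and 2108 gained, so the ratio of lost to gained regions fell from 3.44 to 1.85. Of the 3894, 3754 overlapped a region of the full set.

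**Figure D1:**
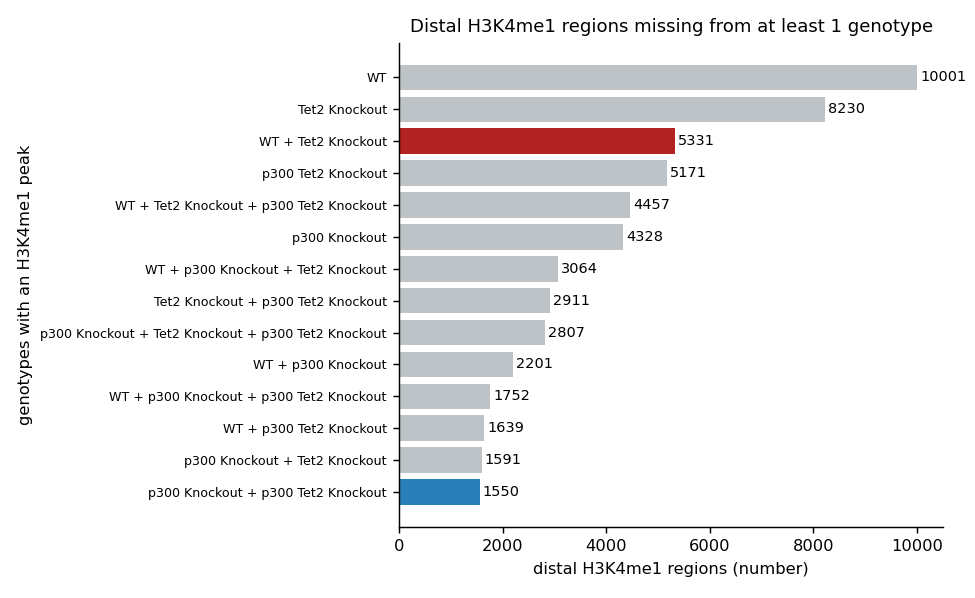
Number of distal H3K4me1 regions (horizontal axis) for each set of genotypes in which a peak was listed (vertical axis), 1 library per genotype, without the 24026 regions found in all 4. The red bar is the 5331 regions of WT and Tet2 Knockout only and the blue bar the 1550 regions of both Ep300-deleted genotypes only.

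Seen from the Ep300-intact side, 36878 distal regions had a peak in WT and in Tet2 Knockout, and 14.5% of them (95% interval 14.1 to 14.8) had no peak in either Ep300-deleted genotype. The same pattern was found at 7.90% (7.59 to 8.21) of the 29564 regions within 3000 bp of a transcript start. The share fell with the WT fold enrichment over H3, from 23.4% to 19%, 11.7%, and 3.74% in 4 groups of equal size by fold, the lowest with folds of 1.77 to 3.95 and the highest with folds of 6.58 to 19.52. By chromosome it lay between 10.6% (chromosome 11, 291 of 2743 regions) and 16.1% (chromosome 9, 324 of 2015).

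The lost regions were narrow and of modest enrichment. Their median width was 448 bp (interquartile range 334 to 615), against 967 bp for regions marked in all 4 genotypes and 392 bp for those gained; a region merged from 4 lists is wider by construction. The WT fold over H3 had a median of 4.21 (interquartile range 3.48 to 5.12) and reached 11.41, and the Tet2 Knockout fold had a median of 4.64 and reached 12.08. Both lists gave a −log10 q of at least 5 at 1714 members (32.2%), against 77.3% of regions marked in all 4 genotypes. At 123 members the WT q value was above the stated limit of 0.05, and at 37 the Tet2 Knockout q value was. The members with the lowest WT −log10 q, 0.51, lay near Dpf3, Thbs4, and Thada.

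Peaks of the Ep300-deleted lists lay near many members, as those of the Ep300-intact lists lay near many gained regions. A peak of an Ep300-deleted genotype lay within 500 bp of 37.0% of the members (1974) and within 2000 bp of 62.3%, while 12.9% (686) had none within 10000 bp, and the median distance from a member to the nearest such peak was 966 bp. A peak of a genotype with Ep300 lay within 500 bp of 33.6% of the gained regions and within 2000 bp of 52.9%. A region marked in all 4 genotypes lay within 500 bp of 23.0% of the members. Another member lay within 10000 bp of 34.9% of them. At the limit of the distance rule, the nearest members inside lay 3003 bp from a start of 1810041H14Rik, 3008 bp from Elmo2, and 3011 bp from Ube2j1, and the nearest regions left out lay 2993 bp from Ctla4 and 2992 bp from Gm16133 and Gm42986.

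The 10 members with the highest enrichment in both lists had a lower fold of at least 7.82. The Maea intron (chr5:33353927-33354346) led with a fold of 11.41 in WT and 11.87 in Tet2 Knockout, and a peak of each Ep300-deleted genotype lay 1.01 kb and 1.00 kb away. The Gm23614 site followed with 9.57 in WT and 10.95 in Tet2 Knockout. The Cdc73 site had 9.23 and 9.85. It had the nearest p300 Knockout peak 1.06 kb and the nearest p300 Tet2 Knockout peak 30.9 kb away. Of these 10, only the Gm23614 and Cdc73 sites carried H3K27ac, with folds of 6.24 in WT and 6.01 in Tet2 Knockout at the Gm23614 site and 4.57 and 4.73 at the Cdc73 site, and neither had an H3K27ac peak after Ep300 deletion. Chpt1, which makes phosphatidylcholine, had a site 3.51 kb from its start with folds of 8.79 and 12.08. An intron of Ms4a4d, of the MS4A membrane protein family, had 7.86 and 11.20. The others lay near 4930432M17Rik, Itm2b, and Gm13655, in an intron of Adamts17 (a secreted metalloprotease, with Gm44609 as the nearest start), and in an intron of Adk (adenosine kinase, with Gm26372 as the nearest start).

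By position, 56.3% of the members lay in introns (95% interval 55.0 to 57.7), 38.7% (37.4 to 40.0) between genes, and 4.95% in exons. Regions marked in all 4 genotypes lay in introns at 61.1% (60.4 to 61.7) and between genes at 34.4% (33.8 to 35.0), and the intervals of the 2 groups did not overlap for either class. The median distance to the nearest start was 12198 bp (interval 11733 to 12651), against 11028 bp for the regions marked in all 4. Members lay more than 50 kb from any start at 7.82% (7.12 to 8.58), against 5.65% (5.36 to 5.95). Gained regions did so at 8.06% (6.76 to 9.53), which overlaps the interval of the members, and lay in introns at 61.0% (58.6 to 63.5), which does not.

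H3K27ac was rare at the lost regions in every genotype. A peak overlapped 199 members in WT (3.73%, 95% interval 3.24 to 4.28), 77 in Tet2 Knockout (1.44%, 1.14 to 1.80), 19 in p300 Knockout (0.356%, 0.215 to 0.556), and 20 in p300 Tet2 Knockout (0.375%, 0.229 to 0.579). Among all distal H3K4me1 regions these shares were 10.2% in WT, 7.32% in Tet2 Knockout, 5.13% in p300 Knockout, and 4.45% in p300 Tet2 Knockout. Regions marked by H3K4me1 in all 4 genotypes had 25.5% in WT (24.9 to 26.0) and 19.1% in Tet2 Knockout (18.6 to 19.6). The 1550 gained regions had 3.35% in WT (2.52 to 4.38), an interval that overlaps that of the members, so a low WT share was not particular to the lost regions, and they had 3.29%, 3.29%, and 3.10% in p300 Knockout, Tet2 Knockout, and p300 Tet2 Knockout. In no genotype was a peak found at 5086 members (95.4%, 94.8 to 96.0). The lower share in WT than at the regions marked in all 4 was also seen within ranges of width and of enrichment. For widths of up to 400 bp, 3.04% of members (2.35 to 3.86) and 12.5% of the regions marked in all 4 (10.8 to 14.4) carried WT H3K27ac. All distal WT regions were split into 4 groups by WT H3K4me1 fold, and in the group with folds of 4.64 to 6.0, 4.41% of members (3.40 to 5.62) and 20.3% of the regions marked in all 4 (19.3 to 21.4) did. In the group above that the shares were 8.87% (6.77 to 11.4) and 39.6% (38.6 to 40.6), but there the members reached folds of 11.41 and the others 19.52, so their enrichment was not alike.

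**Figure D2:**
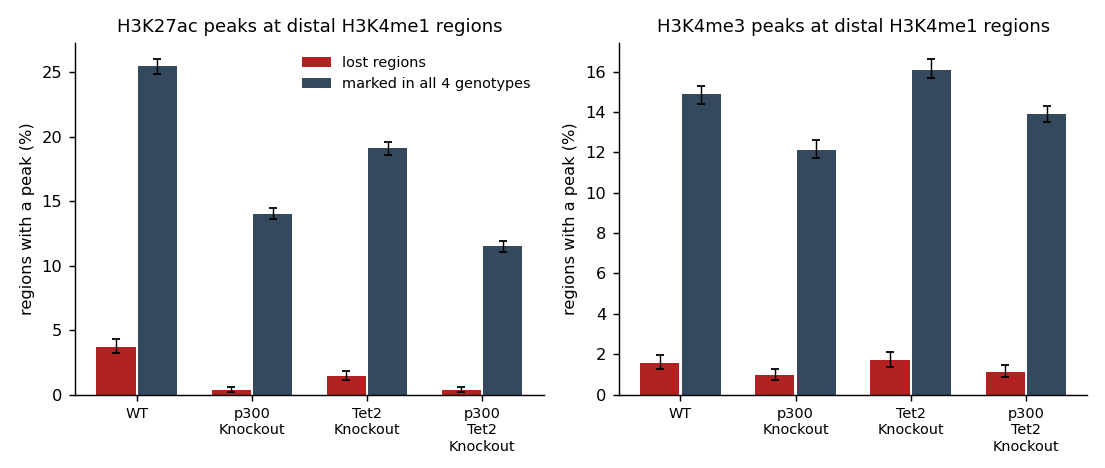
Share of distal H3K4me1 regions with an H3K27ac peak (left) or an H3K4me3 peak (right) in each genotype, for the 5331 lost regions (red) and the 24026 regions marked by H3K4me1 in all 4 genotypes (dark). Bars are percentages from 1 library each and error bars exact 95% binomial intervals; the red H3K27ac bars fall from 3.73% in WT to 0.356% in p300 Knockout.

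Where a lost region was acetylated, the acetylation was mostly missing after Ep300 deletion as well. Of the 199 members with WT H3K27ac, 184 had no peak in p300 Knockout (92.5%, 87.9 to 95.7), against 57.8% of all distal regions with WT H3K27ac and 52.4% (51.2 to 53.7) of those marked by H3K4me1 in all 4 genotypes. On the Tet2-deficient side, 65 of 77 had no peak in p300 Tet2 Knockout (84.4%, 74.4 to 91.7), against 55.0% of all distal regions and 52.7% (51.2 to 54.1) of those marked in all 4. Of the 38 members acetylated in both WT and Tet2 Knockout, 26 had no H3K27ac peak in either Ep300-deleted genotype (68.4%, 51.3 to 82.5), against 26.9% of all distal regions with both peaks. WT acetylation was absent from Tet2 Knockout at 161 of the 199 members too (80.9%, 74.7 to 86.1), against 41.9% of the regions marked in all 4, so at members H3K27ac also differed between the 2 genotypes that kept Ep300.

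These shares were also taken in other ways. Judged at the H3K27ac peak itself, 87.2% (81.7 to 91.6) of the 196 WT peaks at members had no overlapping p300 Knockout peak, against 55.4% (54.1 to 56.7) of those at regions marked in all 4. With every H3K27ac list shortened to 18327 peaks, the WT share was 86.4% at members (57 of 66, 75.7 to 93.6) and 43.5% at regions marked in all 4. On the Tet2-deficient side the 2 settings gave 82.4% (71.8 to 90.3) and 63.3% (19 of 30, 43.9 to 80.1) at members, against 55.8% and 36.7%. Both settings were added after the data were seen.

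The loss was also more frequent at members within ranges of WT acetylation. In 4 equal groups by WT H3K27ac fold, from lowest to highest, 95.9%, 97.2%, 94.3%, and 69.2% of the members lost the peak in p300 Knockout, and 78.9%, 67.7%, 50.2%, and 17.0% of the regions marked in all 4 genotypes did. In the highest group the interval for the members ran from 48.2% to 85.7% (18 of 26) and that for the others from 15.2% to 18.9%. That group is wide, with folds of 8.08 to 53.61, and the members reached 21.02 and the others 51.31, so the classes were not matched within it. The group below it, with folds of 5.78 to 8.08, had 50 of 53 members (84.3% to 98.8%) and 47.7% to 52.7% of the others.

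**Figure D3:**
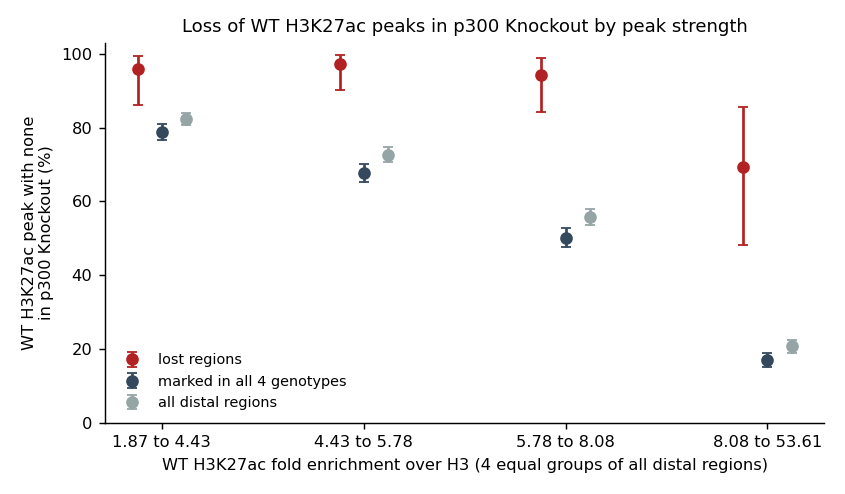
Share of regions with a WT H3K27ac peak that had none in p300 Knockout (vertical axis, %) in 4 equal groups of all distal regions by WT H3K27ac fold over H3 (horizontal axis), with exact 95% binomial intervals and 1 library per genotype. Red points are the lost H3K4me1 regions, dark points those marked by H3K4me1 in all 4 genotypes, and gray points all distal regions; red lies above dark in each group, at 94.3% against 50.2% in the third and 69.2% against 17.0% in the highest, which is wide.

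The 26 members with H3K27ac in both Ep300-intact genotypes only were led by the Mreg intron (chr1:72196444-72196954). Its H3K27ac fold was 19.13 in WT and 14.40 in Tet2 Knockout, and its H3K4me1 fold was 7.63 and 6.74. The Gm25125 site had H3K27ac folds of 14.34 in WT and 5.63 in Tet2 Knockout, and the Gm26296 site had 11.29 and 29.11. An intron of Naip2, an innate sensor of bacterial secretion systems, had 11.27 and 4.0. It lay 17.0 kb from the nearest p300 Knockout H3K4me1 peak. A site 6.19 kb from the start of Rab4a, a GTPase of recycling endosomes, had 11.17 and 3.70, and lay in an intron of Gm20388. A pair of neighboring members in an intron of Shank2, a scaffold protein, belonged to the 26 too, with WT H3K27ac folds of 9.58 and 7.43 and the nearest p300 Knockout H3K4me1 peak 226 kb and 225 kb away.

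H3K27ac stayed in all 4 genotypes at 7 members. They lay nearest to Tram1, Gm36229, Nup153, Acta2, Hhex, Noct, and Gm44734. At the Hhex site, 11.3 kb from a gene for a homeobox factor of stem cells and lymphoid progenitors, the H3K27ac fold was 13.31 in WT, 6.98 in p300 Knockout, 10.00 in Tet2 Knockout, and 12.59 in p300 Tet2 Knockout. Of the 7 sites, 4 also held H3K4me3 in all 4 genotypes, with WT folds of 35.21 at Nup153, 29.69 at Hhex, 19.95 at Gm44734, and 16.04 at Gm36229. The Noct site held it in all but p300 Knockout, and the Tram1 and Acta2 sites in none.

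H3K4me3 was found at 84 members in WT (1.58%, 1.26 to 1.95), 92 in Tet2 Knockout (1.73%), 52 in p300 Knockout (0.975%), and 60 in p300 Tet2 Knockout (1.13%), against 6.82%, 7.32%, 5.82%, and 6.58% of all distal regions. It was missing from p300 Knockout at 40 of the 84 (47.6%, 36.6 to 58.8), against 27.6% of all distal regions with WT H3K4me3. It was missing from p300 Tet2 Knockout at 41 of the 92 with a Tet2 Knockout peak (44.6%, 34.2 to 55.3), against 22.9%. Of the 61 members with H3K4me3 in WT and Tet2 Knockout, 16 had none after Ep300 deletion (26.2%, 15.8 to 39.1), against 9.02% of all distal regions with both, and 38 members had it in all 4 genotypes. Neither H3K27ac nor H3K4me3 was listed in any genotype at 5005 members (93.9%, 93.2 to 94.5), against 60.3% (59.7 to 60.9) of the regions marked by H3K4me1 in all 4.

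The members lay nearest to 3577 of the 11478 genes that had a distal region in WT and Tet2 Knockout (31.2%), and 2543 of these genes had a single member. Most such genes kept other marked regions, since 2494 of them (69.7%) also had a region present in all 4 genotypes. Genes with more regions had more members, from 14.6% of genes with 1 region to 87.2% of genes with 16 or more, while the share of regions that were members stayed between 13.5% and 15.1%.

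Atp8b4, which encodes a phospholipid-transporting ATPase, had the most members, 13 of its 32 regions. They stretched from an intronic site 102 kb from a start to a site 17.0 kb upstream of the gene, and 1 of the 13 carried WT H3K27ac, with a fold of 4.94. Abtb2 had 11 of 30 and Fndc3b 11 of 25, Dapk2 (a death-associated kinase) 10 of 38, and Fam129a, a stress response gene, 10 of 29. Aff1, a scaffold of the super elongation complex, had 9 of 46, Gm10322 9 of 26, 4930509K18Rik 8 of 20, and Chd7, a chromatin remodeler, 8 of 18. Igf1r (8 of 56, near the 14.5% over all regions), Pde4d (8 of 39), Sipa1l1 (8 of 34), and Syne1 (8 of 24) had as many members as Chd7. Cxcr4, the receptor that holds blood progenitors in the marrow, had 9 of 32, between 14.0 and 78.5 kb from a start, with WT H3K4me1 folds of 2.39 to 6.47 and no H3K27ac in any genotype. Each of the 10 genes kept at least 5 regions in all 4 genotypes. When regions were given to protein-coding starts only, Cxcr4 led with 16 of 65, and Trib1, a pseudokinase that directs C/EBPα for degradation, came in with 12 of 37.

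**Figure D4:**
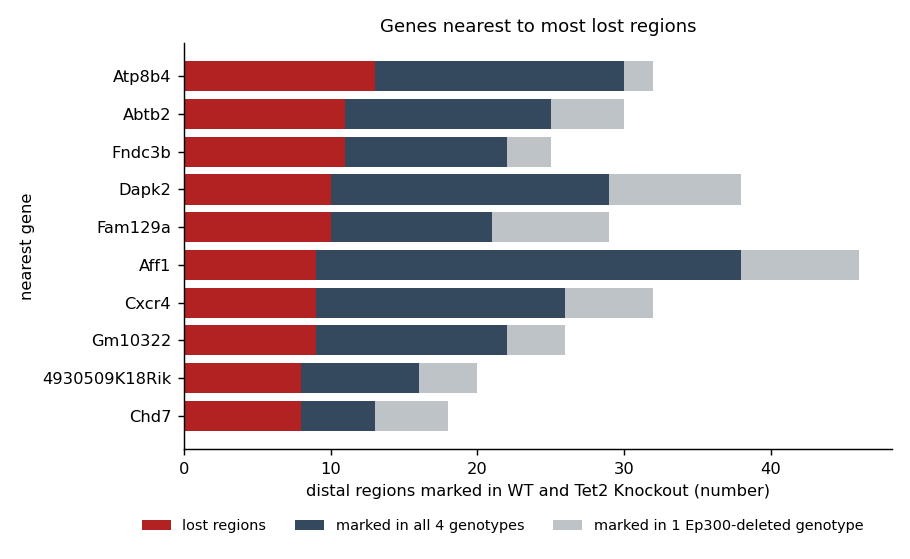
The 10 genes nearest to most lost regions, ties in alphabetical order, (vertical axis) and the number of distal regions marked in WT and Tet2 Knockout nearest to each (horizontal axis). Red marks lost regions, dark those marked in all 4 genotypes, and gray those marked in 1 Ep300-deleted genotype; Atp8b4 has 13 lost of 32 and Aff1 9 of 46.

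In windows of 100 kb, 187 held 4 or more members and the fullest held 10. One of these, chr1:127200001-127300000, covers part of Mgat5 (an N-glycan branching enzyme) and had 27 regions of WT and Tet2 Knockout. The other, chr15:59700001-59800000, had 23 regions and no protein-coding gene, and its nearest starts were those of Gm20150 and Gm19510. At chr1:89500001-89600000, in Agap1, an Arf GTPase-activating protein, 8 of 10 regions were members. The windows chr1:151600001-151700000 in Fam129a and chr2:126400001-126500000 in Atp8b4 had 8 of 23 each, and another 3 windows also held 8 members.

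At 795 of the 11478 genes every region of WT and Tet2 Knockout was a member. Most of these, 692, had a single region, and they were 14.6% of the 4743 genes with a single region. That share is near the 14.5% over all regions. Only 17 of the 795 genes had 3 or more regions. Shank2 had 5 of 5, and Slc35d1 (a nucleotide sugar transporter), Fam19a4, and Gm5641 had 4 of 4. Xrcc5, which encodes the Ku80 DNA repair protein, and Il5ra, the interleukin-5 receptor alpha chain of eosinophils, had 3 of 3. A neighboring pair of the Il5ra members overlapped 1 WT H3K27ac peak with a fold of 11.87. Of that pair, the region at chr6:106725656-106725992 also had H3K27ac in p300 Knockout, with a fold of 5.82, and both had it in p300 Tet2 Knockout, with a fold of 5.19. The pair also overlapped an H3K4me3 peak in all 4 genotypes, with folds of 28.18 in WT, 14.27 in p300 Knockout, 18.45 in Tet2 Knockout, and 17.04 in p300 Tet2 Knockout. Of the deleted genes, Ep300 had no distal region in WT and Tet2 Knockout nearest to a start of its own, and Tet2 had 5, of which 1, in an intron, was a member.

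Gene lists drawn up for blood lineages and pathways differed in the share of their regions that were lost, against 14.5% over all genes. The lists are small, share some genes, and are described by counts only. They were chosen with earlier results of these data known, and their intervals count neighboring regions as separate. Genes of mast cells, basophils, and eosinophils had the highest share, 22 of 77 regions (28.6%, 95% interval 18.8 to 40.0), and 11 of the 15 genes with a region had a member. Ccr3, the eotaxin receptor of eosinophils and basophils, had 5 of 13, Il5ra 3 of 3, and Kit, the stem cell factor receptor that mast cells also need, 3 of 17. Prg2 (eosinophil major basic protein), Il4, and Alox5 had 2 each, and Hdc (histamine synthesis), Il1rl1 (the interleukin-33 receptor), Mcpt8 (a basophil protease), Csf1, and Rab27b 1 each. The 5 Ccr3 members had WT folds of 4.96 to 7.38, and none carried H3K27ac in WT. The share was 26.6% without Ccr3, 31.7% without Kit, 26.2% with H3K4me1 lists of equal length (all genes, 12.1%), and 18% (8.58 to 31.4) when both peaks had to reach a −log10 q of 5 (all genes, 7.20%). Promoters of the same 20 genes carried H3K27ac at 9 genes in WT and 5 in p300 Knockout, and at 9 in Tet2 Knockout and 6 in p300 Tet2 Knockout. Over the promoters of 20807 protein-coding autosomal genes, 46.5%, 44.4%, 45.5%, and 42.4% carried H3K27ac in WT, p300 Knockout, Tet2 Knockout, and p300 Tet2 Knockout. The promoters of the list carried H3K4me3 at 14, 12, 17, and 14 genes in the same order, against 61.5% to 62.9% of all promoters. The share of these cells among the Lin- cells was not tested.

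Regulators of stem and progenitor cells had 13 of 155 regions (8.39%, 4.54 to 13.9). Cdk6, a cell cycle kinase of progenitors, had 4 of 34, Erg 3 of 25, Kit 3 of 17, and Runx1 1 of 45, or 10 of 86 by protein-coding starts. NF-kB and immediate early genes had 5 of 80 (6.25%, 2.06 to 14.0), with 2 of 24 at Nfkb1 and 1 each at Fos, Rela, and Traf1. The intervals of both lists lay below the share over all genes, but with H3K4me1 lists of equal length they included it (all genes, 12.1%), at 6.99% (3.40 to 12.5) for the stem and progenitor list and 6.76% (2.23 to 15.1) for the NF-kB list. They also included it when both peaks had to reach a −log10 q of 5 (all genes, 7.20%), at 2.59% (0.537 to 7.37) and 3.12% (0.381 to 10.8). By protein-coding starts (all genes, 14.5%) the shares were 9.58% (6.56 to 13.4) and 7.09% (3.45 to 12.7). Promoters of the stem and progenitor list carried H3K4me3 at 20 of 20 genes in each genotype and H3K27ac at 14 to 15.

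The remaining lists had intervals that included the share over all genes, except that the erythroid list did not by protein-coding starts. Genes of acetylation and H3K4 methylation had 15 of 73 (20.5%, 12 to 31.6), with 3 each at the deacetylase Hdac4 and the acetyltransferase Kat6b and 2 at Hdac7. T- and NK-lymphoid genes had 12 of 70 (17.1%), led by Ets1 with 3 of 11, with 2 of 16 at Cd44. B-lymphoid genes had 6 of 39 (15.4%), led by Bach2 with 2 of 15, and 1 each at Dntt and Ebf1. Megakaryocyte and platelet genes had 6 of 45 (13.3%). Of these 6, 5 lay in introns of Mylk, myosin light chain kinase, which had 9 regions, and the sixth was at Itgb3. Cytokine, chemokine, and Notch signaling genes had 21 of 180 (11.7%), 9 of them at Cxcr4, 4 at Ifngr1, and 3 at Stat3. Genes of other tissues had 1 of 9, at Krt8. Erythroid genes had 3 of 35 (8.57%), 1 each at Bcl11a, Car2, and Epb41, and had 4 of 73 (5.48%, 1.51 to 13.4) by protein-coding starts. Granulocyte and monocyte genes had 3 of 42 (7.14%), 1 each at Fcgr3, Gfi1, and Ly86, and had 14 of 94 (14.9%) by protein-coding starts. Dendritic cell genes had 3 of 50 (6.0%, 1.25 to 16.5), with 2 at Batf3 and 1 at Bcl11a. By protein-coding starts they had 21 of 211 (9.95%, 6.27 to 14.8), with 10 at Id2 and 7 at Runx2.

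**Figure D5:**
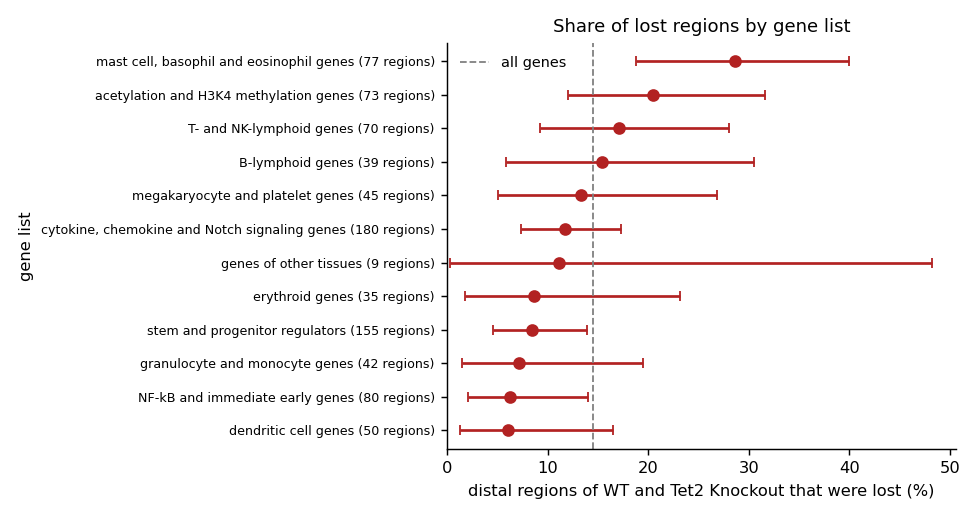
Share of the distal regions of WT and Tet2 Knockout that were lost (horizontal axis, %) for each gene list (vertical axis, number of regions in parentheses), with exact 95% binomial intervals. The dashed line is the 14.5% over all genes; the mast cell, basophil, and eosinophil list lies at 28.6% and the stem and progenitor list at 8.39%.

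The DNA under the lost regions was searched in 200 bp at the WT summit (GRCm38). The median G+C content was 50.5% (interquartile range 48.5 to 53.5), against 52.5% (49.5 to 55.0) at regions marked in all 4 genotypes. Repeats masked by the reference took 18% of the bases on average, against 13.1% at regions marked in all 4 and 15% at those gained. More than 50% of the window was masked at 12.1% of the members and at 6.79% of the regions marked in all 4. The difference was present in each of the 4 groups by WT H3K4me1 fold, with 16.7% to 18.9% of bases masked at members and 12.3% to 13.6% at the others. Reads in repeats map less surely, and the part of this in the losses was not tested.

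Of the 17 searched motifs, the intervals for members and for regions marked in all 4 genotypes did not overlap for the C/EBP and the GABPA type ETS letters. The PU.1 type ETS letters (GAGGAAG, either strand) were in 10.3% of the member windows (9.46 to 11.1), 11.3% of those of regions marked in all 4, and 10.8% of all distal WT windows. RUNX letters (TGTGGTT) were in 5.93% and 5.96% of members and of regions marked in all 4, GATA letters (AGATAAG) in 3.13% and 2.80%, AP-1 letters (TGANTCA) in 6.19% and 6.26%, and MYB letters (CAACNG) in 27.3% and 28.0%. The C/EBP letters (TTGCNNAA) were in 8.12% of members (7.40 to 8.89), 6.81% of regions marked in all 4, and 7.33% of all distal WT windows. In the group of highest WT fold they were in 11.6% of members (9.18 to 14.3) and 6.41% (5.94 to 6.90) of the others, whose folds reached higher. In the lower groups, from the lowest fold, members had 7.58% (6.37 to 8.95), 7.41% (6.18 to 8.80), and 8.04% (6.67 to 9.58). The others had 6.42% (5.61 to 7.31), 7.24% (6.48 to 8.05), and 7.37% (6.73 to 8.05), so the intervals overlapped in each lower group. The GABPA type ETS letters (CCGGAAG) were in 0.994% of members (0.746 to 1.30) and 1.49% of regions marked in all 4. Gained regions had C/EBP letters at 7.16% (5.93 to 8.56) and GABPA type letters at 1.61% (1.05 to 2.37). Both intervals overlap those of the members. None of the 17 motifs was in 1158 member windows (21.7%). A match is a match of letters only.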

How the data were processed

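For Lin- bone marrow cells of 4 genotypes, 12 peak lists of 3 histone marks were used, and the other 8 of 20 samples (H3 and H3K27me3) were not analysed here. The authors used Cutadapt 1.15 for trimming, BWA 0.7.13 for alignment to mm10, Picard for duplicates, and MACS2 2.1.1.20160309 for narrow peaks on pseudo-replicates, with H3 as background and a stated q under 0.05. The deposited lists hold a score (not used), a fold enrichment (the ratio over H3), and p-values and q-values on a −log10 scale. They carry no read depth, and no scaling to the Drosophila spike-in is described. A peak just under the threshold counts as absent, and fold values of different lists were not compared as amounts.

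Lists were merged, a peak counted with an overlap of 1 bp, and transcript starts, introns, and exons came from GENCODE mouse release 21 on GRCm38, which is mm10. Position was read at the WT summit (center of the region where WT had no peak). Sequence was taken from RefSeq GRCm38.p6. Motif letters were counted on both strands within 100 bp of the WT summit, or of the p300 Knockout summit for gained regions. Scripts ran in Python 3.11.15 (intervals with scipy 1.17.1, sequence with pysam 0.24.0, tables with pandas 2.3.3 and numpy 2.4.6), and bedtools 2.31.1 gave the same 5331 members. The scripts were also tested on simulated data. Samples were grouped by their labels. Each genotype had 1 library per mark and no test between genotypes was made, and shares have exact 95% binomial intervals that cover counting error only.

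The members and gene lists were chosen with earlier results of these data known. Named by rule were the 10 members with the highest lower fold of WT and Tet2 Knockout, the 5 with the highest WT H3K27ac among those acetylated in both only, those nearest the distance limit, those with the lowest WT −log10 q, the 10 genes and 5 windows with most members (ties by symbol or position), up to 3 genes of each list, and Ep300 and Tet2. Genes whose every region was a member, the 7 members acetylated in all 4 genotypes, the Shank2 pair, further genes of the mast cell list, and Trib1, Runx1, Traf1, and the genes tied at 8 members were named after their values were seen. Alternatives changed the overlap, merging, peak strength, list length, padding, distance limit, start set, and chromosomes.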

Additional observations from a re-analysis of the deposited data

How the results depend on the processing

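The 5331 lost regions stayed within 1.5 times of that number with stricter peaks in all lists, lists of equal length, other distance limits, and chromosome X added. A 100 bp overlap cannot change a call, because each peak lies inside its merged region and is wider than that. They were 2991 with peaks within 500 bp merged, 3361 and 2012 with no peak of an Ep300-deleted list within 500 bp and 2000 bp, and 1714 with a −log10 q of at least 5 required in both Ep300-intact lists. The 1550 gained regions were 392 with only peaks of −log10 q of at least 5, 1030 and 730 with the padding, and 96 with the stricter presence. Lost regions outnumbered gained ones in every one of these settings. The ratio was 1.85 (lists of equal length) to 3.47 (chromosome X added) where −log10 q did not have to reach 5. It was 14.4 and 17.9 where it did. The Ep300-deleted lists had the lowest median −log10 q (4.53 and 5.55), so that limit falls mainly on gained regions, and these 2 ratios cannot show that loss prevailed.

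The share with WT H3K27ac was 9.17% with peaks within 500 bp counted, 2.31% with only H3K27ac peaks of −log10 q of at least 5, and 5.83% at the 1714 stronger members. The share acetylated in WT and Tet2 Knockout only (0.488%) was 1.54%, 0.225%, and 0.875% in the same settings. The share with WT H3K4me3 was 4.11% with peaks within 500 bp. The share in introns was 50.7% by protein-coding genes and 54.9% at the stronger members, the median distance was 18188 bp to protein-coding starts, and the stronger members lay nearest to 1384 genes. The PU.1 type letters were in 23.5% of windows of 250 bp on either side, which are longer by construction. The loss of WT H3K27ac was 87.2% at the peak itself and 86.4% with H3K27ac lists of equal length, and that of Tet2 Knockout H3K27ac was 63.3% with lists of equal length. The cause of the other changes was not tested. No paired analysis was possible because the values are shares and counts of listed peaks that come from no test between libraries, and each group has 1 replicate number. Both Ep300 comparisons, one in each Tet2 background, enter the rule that chose the members. Read depth is unknown, which limits what an unlisted peak can show.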

Other observations

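The 1550 distal regions with the opposite pattern, H3K4me1 in both Ep300-deleted genotypes only, carried H3K4me3 more often than the lost regions. It was listed in at least 1 genotype at 9.23% of them (95% interval 7.83 to 10.8), against 2.27% (1.89 to 2.71) of the lost regions. H3K27ac was listed in at least 1 genotype at 6.06% (4.93 to 7.37), against 4.6% (4.05 to 5.19), and these intervals overlap. Of the 52 gained regions with WT H3K27ac, 18 had none in p300 Knockout (34.6%, 22.0 to 49.1). Of the 3577 genes with a lost region, 335 also had a gained one (9.37%).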
